A study of Bos grunniens with 9 samples.

Results

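Rows of the gene table that carry the symbols pol, F52C9.6, CFDP2 or L1RE1 were followed through ribosome footprint libraries of the yak (Bos grunniens) ovary. They are rows of the host genome to which the deposited annotation gave the name of a retroelement protein, or of a protein related to one, by sequence similarity. Every identifier with one of the 4 symbols and a summed count above 0 over the 9 libraries was taken and kept separate, which gave 235 of the 21652 rows in the table, of which 18089 had a count above 0. They comprised 106 pol rows, 74 F52C9.6 rows, 36 CFDP2 rows and 19 L1RE1 rows. The member with the fewest counts, an L1RE1 row, had 4 in all 9 libraries together, and the 6 L1RE1 rows outside the rule had 0. The 4 symbols were picked because rows carrying them stood among the few calls between estrus and anestrus in earlier results of these data, so everything given for that comparison, the calls that led to the choice included, is a description from which nothing is read.

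The yaks were 6 years old, and their ovaries were collected while anestrous (April), in estrus (August) or pregnant (December), with 3 libraries of each of these 3 stages. No treatment was applied. Stage and month cannot be told apart, and the labels do not tie replicates to single animals. Ribosome profiling counts the pieces of RNA that ribosomes shield from RNase. Because whole ovary was used, fewer cells of a type and less RNA per cell cannot be told apart.

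Retroelements copy themselves through RNA, and long interspersed elements (LINEs) carry the enzymes for it. LINE-1 has a first reading frame for an RNA-binding chaperone, which L1RE1 names, and a second for an endonuclease joined to a reverse transcriptase. Ruminant genomes also hold many copies of BovB, a LINE of the RTE type that encodes an endonuclease and a reverse transcriptase. The bucentaur genes, to which CFDP2 belongs, encode chromatin proteins, and in ruminants a duplicated bucentaur gene carries a stretch descended from an RTE-type endonuclease. Germ cells and their somatic neighbours silence retroelements through chromatin marks, DNA methylation and, in germ cells, piRNAs.

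The annotation of the rows was nearly uniform. Of the 106 pol rows, 97 were described as an endonuclease-reverse transcriptase, and so were 73 of the 74 F52C9.6 rows. The database protein behind this description is credited to Babesia ovata, a cattle parasite, whereas the row identifiers are those of cattle Ensembl genes, so the rows are read here as host rows. The name F52C9.6 itself is that of a transposon-derived protein of Caenorhabditis elegans. Another 73 rows with a count above 0 had the same description but none of the 4 symbols, and serve below as a comparison. One pol row was described instead as a Pol-like protein of endogenous retrovirus group K, a retrovirus inherited in the germline. Among the L1RE1 rows, 13 were described as LINE-1 type transposase domain-containing and 6 as a transposase of Bos taurus, and all 19 carried the same annotation of single-stranded RNA binding and RNA-mediated transposition.

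The CFDP2 rows were of more than one kind. ENSBTAG00000009805 was described as craniofacial development protein 2 and ENSBTAG00000030600 as bucentaur-2, and this bucentaur pair was treated apart from the other 34 rows. Of those 34, 17 were described through a monitor lizard protein and 12 through the same muntjac protein of unknown function. Except for 3 rows, the members had identifiers above ENSBTAG00000048000 (232 of 235), a range that held 18.1% of all rows in the table. Gene lengths implied by the deposited FPKM could be derived for 184 of the 235 members. Their median was 945 bases for L1RE1, 1240.3 for F52C9.6, 1289 for pol and 1618 for CFDP2, the bucentaur pair included. Lengths of all rows were not compared.

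The members together held 307086 counts. F52C9.6 rows took 40.6% of them, pol rows 38.2%, CFDP2 rows 18.5% and L1RE1 rows 2.61%. The counts were concentrated in few rows, 23 of which held 50% of the total, and the bucentaur pair alone held 12.7%. Per length, the mean FPKM of a row over the 9 libraries had a median of 11.9 for F52C9.6, 5.44 for pol, 2.96 for the other CFDP2 rows and 2.67 for L1RE1, against 7.07 over all rows with counts. The bucentaur pair stood at 113 and 120.5 FPKM, and the most abundant F52C9.6 row at 197 FPKM. Near-identical copies compete for the same reads, and the authors' quantification divides such reads among them, so the value of a single row is less certain than the sum of its family.

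Total counts were 15.4, 28.9 and 12.0 M (M stands for 1e6) in anestrus replicates 1 to 3, 6.11, 11.1 and 6.08 M in estrus replicates 1 to 3, and 9.08, 4.97 and 1.47 M in pregnancy replicates 1 to 3, so stage and depth were unbalanced. A level of 3 counts, taken as the floor, equalled between 0.104 and 2.04 CPM (counts per 1e6 counts of the library). Markers of ovarian cells were present: summed over each list, granulosa markers stood at 1383 to 3704 CPM in anestrus, 1795 to 5899 CPM in estrus and 1184 to 3518 CPM in pregnancy, and theca and luteal markers at 390 to 1943, 670 to 2660.5 and 1407 to 5802 CPM. Oocyte markers were low, with 14 matched genes summing to between 4.74 and 21.9 CPM and DPPA3 at 0 in every library.

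The level of the retroelement-like rows varied several-fold between libraries of the same stage. Without the bucentaur pair, their sum was 4131, 852 and 1825 CPM in anestrus, 5787, 2856 and 5625 CPM in estrus, and 3340.0, 2648 and 8920.0 CPM in pregnancy. The highest library, pregnancy replicate 3, was also the shallowest, and the lowest, anestrus replicate 2, the deepest, a 10.5-fold difference between them. All 3 stages overlapped: anestrus replicate 1 lay above estrus replicate 2 and above 2 of the pregnancy libraries. With the pair included, the members took 0.452, 0.120 and 0.224% of all counts in anestrus, 0.634, 0.337 and 0.601% in estrus and 0.379, 0.304 and 0.942% in pregnancy. By stage the sum of all members averaged 2652 ± 1698 CPM in anestrus, 5241 ± 1629 CPM in estrus and 5416 ± 3487 CPM in pregnancy (SD, n = 3 each).

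**Figure D1:**
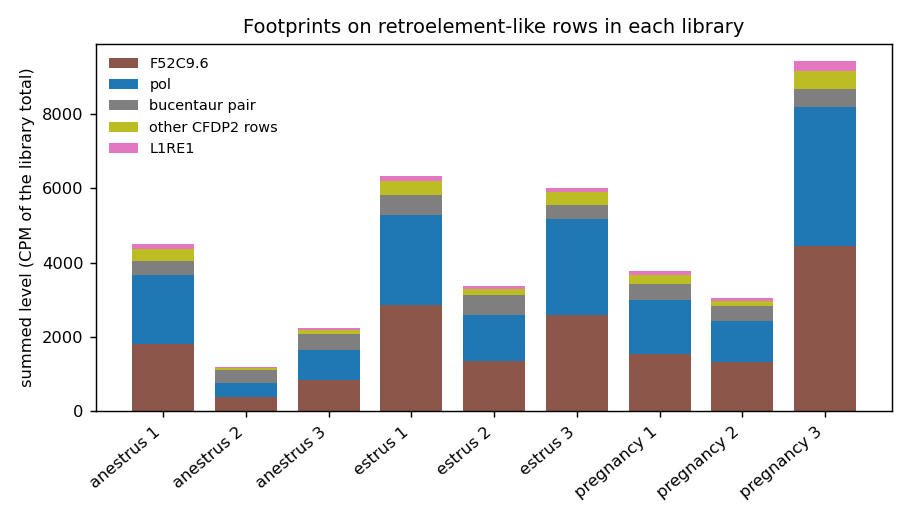
Summed level of the rows of each class in each library (vertical axis, CPM of the library total, stacked). The bars run from 1196 CPM in anestrus replicate 2 to 9419 CPM in pregnancy replicate 3, and the grey bucentaur segment stays between 344 and 557 CPM.

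The bucentaur pair varied less, although its lowest library was also anestrus replicate 2. Its sum was 386, 344 and 416.5 CPM in anestrus, 557, 515 and 383 CPM in estrus, and 447, 393 and 499 CPM in pregnancy. The highest of these libraries was 1.62-fold above the lowest, compared with 8.24-fold for the other CFDP2 rows, 10.3-fold for pol, 11.3-fold for F52C9.6 and 6.84-fold for L1RE1. CFDP1, the other bucentaur gene of the genome and no member, ranged 2.04-fold. ENSBTAG00000030600 had 204, 160.3 and 225 CPM in anestrus, 302, 265 and 193 CPM in estrus, and 243, 217 and 286 CPM in pregnancy. ENSBTAG00000009805 had 182, 184 and 191 CPM in anestrus, 255, 249 and 189 CPM in estrus, and 204, 176 and 213 CPM in pregnancy. For both genes estrus replicates 1 and 2 were higher than every anestrus library and estrus replicate 3 was not.

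F52C9.6, pol and the remaining CFDP2 rows moved together from library to library. F52C9.6 rows summed to 1819, 392 and 838 CPM in anestrus, 2860.4, 1349 and 2589 CPM in estrus, and 1550.4, 1332 and 4440 CPM in pregnancy. The pol rows summed to 1850.4, 365 and 822 CPM in anestrus, 2418, 1259 and 2579 CPM in estrus, and 1437, 1103 and 3748 CPM in pregnancy. Both families thus had the same highest and lowest library. The other CFDP2 rows summed to 322, 59.0 and 105 CPM in anestrus, 371, 176 and 367 CPM in estrus, and 229, 132 and 486 CPM in pregnancy, with the same extremes. L1RE1 rows summed to 140.3, 35.9 and 60.4 CPM in anestrus, 138, 72.1 and 91.1 CPM in estrus, and 124, 81.3 and 246 CPM in pregnancy.

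Row by row the picture was similar. Of the 218 members that passed a filter on low counts, 107 had their highest level in pregnancy replicate 3 and 132 their lowest in anestrus replicate 2. Among all 13936 rows that passed, 21.0% were highest and 15.8% lowest in those libraries. In anestrus replicate 2, 6 of the 218 rows stood above their own mean over the 9 libraries (median deviation -1.61 on the log2 scale), whereas in estrus replicate 3 the number was 200 (median 0.88). Estrus replicate 1 had 198 rows above their mean, and estrus replicate 2, the deepest of the estrus libraries, 119.

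**Figure D2:**
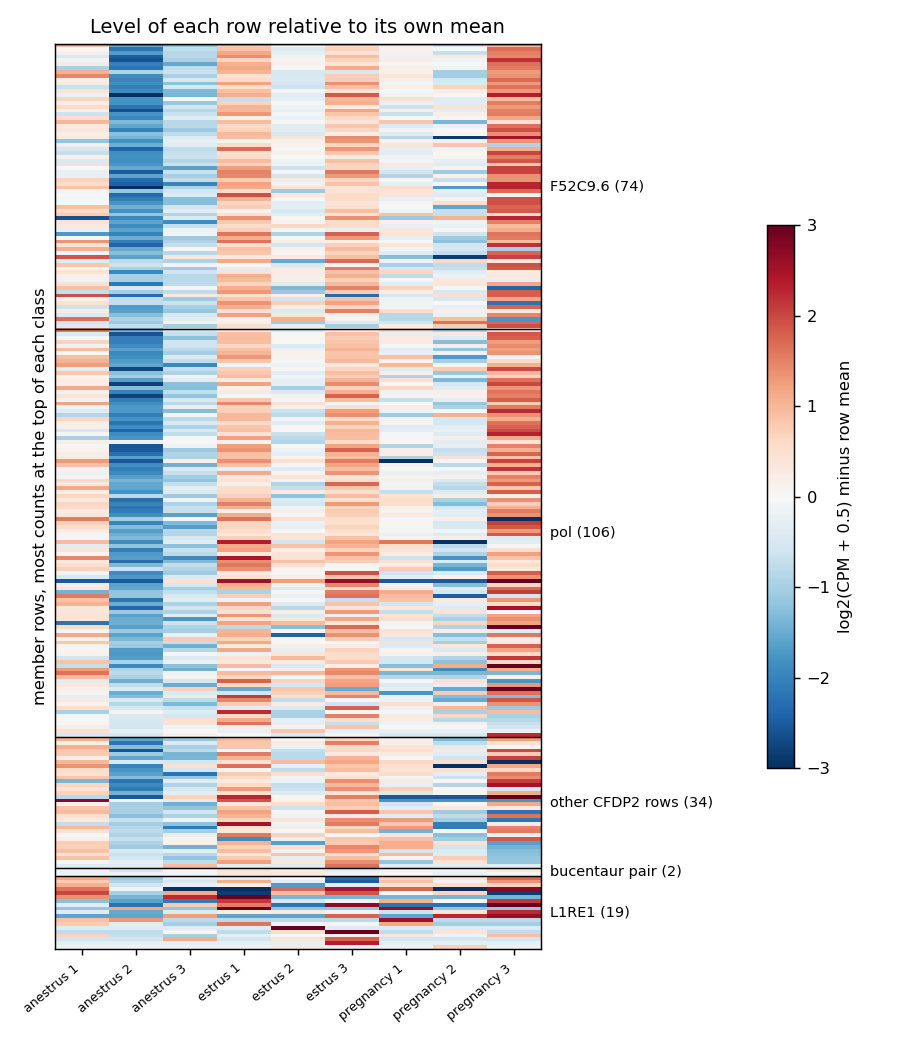
Level of each of the 235 members in the 9 libraries as log2(CPM + 0.5) minus the mean of the row (colour, from -3 to 3), with rows grouped by class and sorted by counts. Anestrus replicate 2 is blue and pregnancy replicate 3 red through most F52C9.6 and pol rows, whereas the L1RE1 block at the bottom is patchy.

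The correlation of a row's log2 CPM with the summed level of the other members, over the 9 libraries, described this shared movement. Its median was 0.89 for F52C9.6, 0.84 for pol, 0.69 for the other CFDP2 rows and 0.28 for L1RE1. The 2 rows of the bucentaur pair had -0.04 and 0.496. Of the 218 rows, 180 (82.6%) exceeded 0.5, compared with 17.0% of all rows tested. The libraries share their depth in every one of these values, and the same rows had a median correlation of -0.62 with log2 depth, against 0.04 over all rows. The first principal component of the member rows held 49.3% of their variance, compared with 30.3% over all rows, and its extreme scores were 18.8 in pregnancy replicate 3 and -23.7 in anestrus replicate 2.

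Level and depth ran in opposite directions, though not between all libraries of a stage. The deepest library was the lowest in anestrus and in estrus. In anestrus, replicate 1 with 15.4 M counts stood above replicate 3 with 12.0 M. In pregnancy, replicate 1 with 9.08 M counts had 3340.0 CPM and replicate 2 with 4.97 M had 2648 CPM. The part of depth in the levels was not tested beyond the fits with depth as a term given below.

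**Figure D3:**
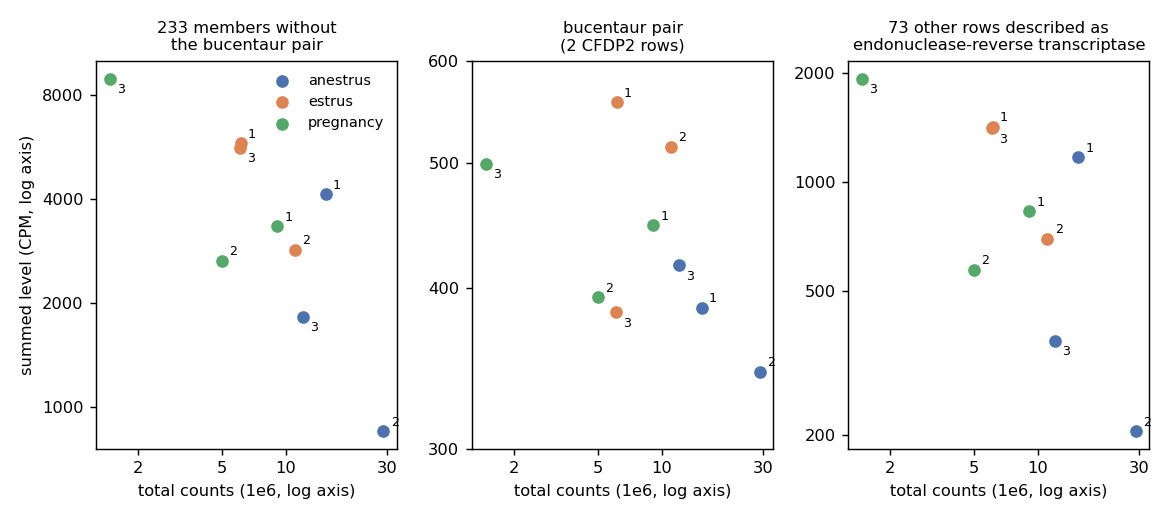
Summed level (vertical axis, CPM, log scale) against total counts of the library (horizontal axis, 1e6 counts, log scale), for the members without the bucentaur pair, for the pair, and for 73 other rows with the same description. Points are libraries, numbered by replicate and coloured by stage; vertical scales differ, and the panels span 10.5-fold, 1.62-fold and 9.38-fold from left to right.

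The 73 rows described as endonuclease-reverse transcriptase without a member symbol behaved alike. They summed to 1167.5, 205 and 364 CPM in anestrus, 1419, 695 and 1403 CPM in estrus, and 829.5, 572 and 1925 CPM in pregnancy. Their median correlation with the summed members was 0.86, and 59 of the 68 tested exceeded 0.5. Rows with the symbol Pol, written with a capital and taken up as a separate symbol by the annotation, spanned 11.1-fold between the same 2 libraries. Rows outside the 4 symbols thus had a similar course. Reads may be divided between these rows and the members, so the rows are no independent check on that course.

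L1RE1 rows differed from the rest in that several were present in some libraries and at 0 in others of equal or greater depth. The row ENSBTAG00000049311 had 240, 119 and 0 counts in anestrus, 0, 179 and 172 counts in estrus, and 152, 0 and 49 counts in pregnancy. The row ENSBTAG00000050903 had 45, 0 and 69 counts in anestrus, 216, 0 and 0 counts in estrus, and 0 in all 3 pregnancy libraries. In both rows, zeros and high counts stood side by side within anestrus and within estrus. A row was called on-off if it was at 0 in a library while a library no deeper held at least 20 counts. By this rule 9 of 19 L1RE1 rows (47.4%) were on-off, 6 of 34 other CFDP2 rows (17.6%), 6 of 106 pol rows (5.66%) and 2 of 74 F52C9.6 rows (2.70%), compared with 199 of 18089 rows in the whole table (1.10%). Within rows of 100 to 2500 summed counts the shares were 10.1% of 179 members and 1.32% of 8199 rows. Split reads between near-identical copies were not separable here, and their part in the on-off rows was not tested.

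**Figure D4:**
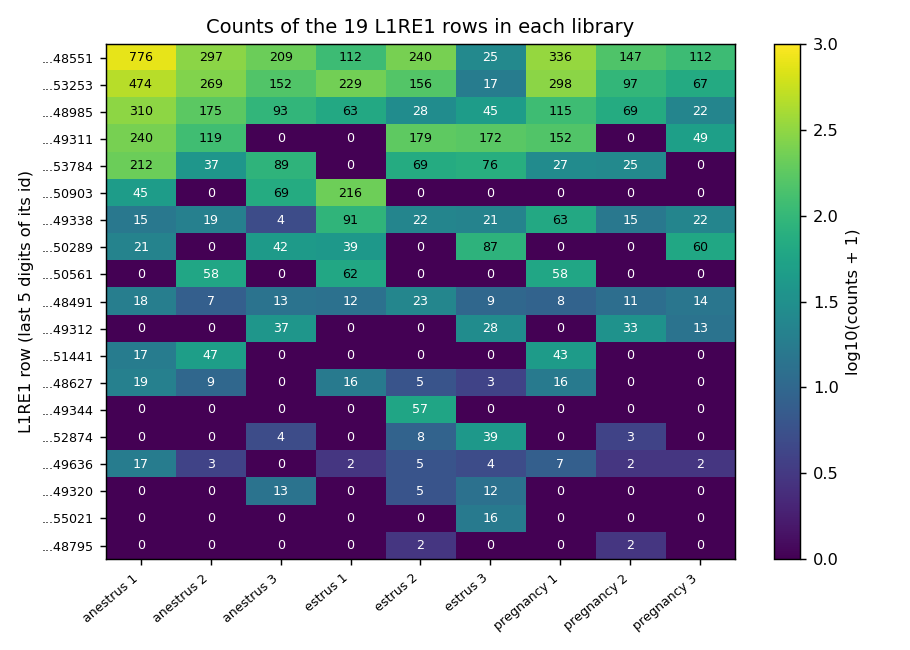
Counts (numbers in the cells; colour is log10 of the count plus 1) of the 19 L1RE1 rows, one per line, in the 9 libraries. Cells with 0 lie beside cells with over 100 counts in the same row, as in ENSBTAG00000049311 and ENSBTAG00000050903, while the 3 most abundant rows were above 0 in every library.

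The most abundant L1RE1 rows were present throughout. ENSBTAG00000048551 had 50.3, 10.3 and 17.4 CPM in anestrus, 18.3, 21.7 and 4.11 CPM in estrus, and 37.0, 29.6 and 76.3 CPM in pregnancy. ENSBTAG00000053253 had 30.7, 9.30 and 12.7 CPM in anestrus, 37.5, 14.1 and 2.797 CPM in estrus, and 32.8, 19.5 and 45.6 CPM in pregnancy. Estrus replicate 3, where pol and F52C9.6 rows were high, was the lowest library for both. ENSBTAG00000048985, described as a transposase, had 20.1, 6.05 and 7.75 CPM in anestrus, 10.3, 2.53 and 7.403 CPM in estrus, and 12.7, 13.9 and 15.0 CPM in pregnancy. The fifth L1RE1 row by counts, ENSBTAG00000053784, had 13.7, 1.28 and 7.42 CPM in anestrus, 0, 6.23 and 12.5 CPM in estrus, and 2.97, 5.03 and 0 CPM in pregnancy, and was thus at 0 in a library of each later stage. For ENSBTAG00000048985 every pregnancy library exceeded every estrus library, and its log2 fold change between them was 0.98 ± 0.53 (SE; edgeR adjusted p = 0.696).

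The spread between libraries of a stage was larger for members than for other rows. The median biological coefficient of variation from edgeR was 55.8% for the 218 member rows and 28.7% for all tested rows. It was 108% for L1RE1, 61.8% for the other CFDP2 rows, 56.0% for pol, 51.7% for F52C9.6 and 20.7% for the bucentaur pair. Of the 17 members that did not pass the filter, 8 were pol, 6 L1RE1, 2 CFDP2 and 1 F52C9.6, with 4 to 67 summed counts each.

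Estrus and anestrus were compared to describe the pattern for which the symbols had been picked. Of the 218 rows, 204 had a positive log2 fold change, with a median of 1.08, and the median of all rows was -0.01. Cell type markers moved in the same comparison: the median was 0.91 for granulosa markers (9 of 10 positive), 0.42 for theca and luteal markers (8 of 8) and -0.26 for markers of other ovarian cells (3 of 14), and their part in the levels of the members was not tested in this or the other comparisons. Among the members, medians were 1.15 for F52C9.6 (69 of 73 positive), 1.08 for pol (94 of 98), 1.06 for L1RE1 (8 of 13), 0.83 for the other CFDP2 rows (31 of 32) and 0.31 for the bucentaur pair. In 53 rows every estrus library was higher than every anestrus library, where 4.76% of all rows showed this, and in 0 rows every estrus library was lower, where the background was 5.64%. The calls that led to the choice of the symbols, from which nothing is read here, were as follows. DESeq2 placed 5 members higher in estrus (0.0504% of all rows) and 0 lower (0.0576%). The authors' deposited table listed 10 as higher (0.0885%) and 0 as lower (0.0829%). By contrast edgeR called 0 (0% in either direction, with 63 members higher and 0 lower at an unadjusted p under 0.05, where the backgrounds were 2.91% and 4.13%). Leaving out anestrus replicate 2 together with pregnancy replicate 3, a choice made after the data were seen, gave a median of 0.76. The median was 0.78 without anestrus replicate 2 alone and 1.87 without anestrus replicate 1, and with log2 library size in the model it was 0.32 (156 of 218 positive).

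The row with the most counts among those DESeq2 called, the F52C9.6 row ENSBTAG00000052603, had 141, 62.2 and 135 CPM in estrus and 31.5, 13.4 and 36.8 CPM in anestrus. Every estrus library was higher, with a log2 fold change of 2.03 ± 0.46 (SE). The pol row ENSBTAG00000052837 had 10.6, 8.85 and 10.04 CPM in estrus and 3.57, 1.73 and 1.67 CPM in anestrus. The pol row ENSBTAG00000051141 had 7.53, 6.14 and 3.95 CPM in estrus and 0.259, 0.760 and 1.75 CPM in anestrus. In both the stages did not overlap, and the log2 fold changes were 2.04 ± 0.44 and 2.67 ± 0.62 (SE). The L1RE1 row ENSBTAG00000049338, described as a transposase, had 14.9, 1.99 and 3.45 CPM in estrus and 0.973, 0.657 and 0.333 CPM in anestrus, again without overlap and with its highest value in estrus replicate 1. The F52C9.6 row ENSBTAG00000054534 had 49.8, 14.8 and 38.7 CPM in estrus and 10.4, 2.45 and 8.75 CPM in anestrus, and was higher in every estrus library.

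Among rows whose higher stage reached 2 CPM, the largest log2 fold changes included the CFDP2 row ENSBTAG00000049776, with 11.5, 1.44 and 5.76 CPM in estrus and 0.778, 0.553 and 0.417 CPM in anestrus. The pol row ENSBTAG00000049239 had 15.9, 6.32 and 17.3 CPM in estrus and 0, 0 and 3.33 CPM in anestrus. Under the same limit the lowest log2 fold changes belonged to the F52C9.6 row ENSBTAG00000050345, to ENSBTAG00000048551 and to ENSBTAG00000048985. ENSBTAG00000050345 had 2.95, 2.35 and 0 CPM in estrus and 8.95, 0 and 2.50 CPM in anestrus, and its stages overlapped.

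The most abundant rows showed how much of the stage difference turned on single libraries. ENSBTAG00000050509, the F52C9.6 row with the most counts, had 273, 151 and 231 CPM in estrus and 283, 52.9 and 70.7 CPM in anestrus. The pol row with the most counts, ENSBTAG00000049258, had 91.5, 53.5 and 83.9 CPM in estrus and 213, 27.7 and 49.3 CPM in anestrus. In both, anestrus replicate 1 was the highest library of the 2 stages and anestrus replicate 2 the lowest. By contrast ENSBTAG00000050287, the second pol row by counts, had 147, 82.2 and 145 CPM in estrus and 57.6, 12.6 and 48.3 CPM in anestrus, with no overlap. ENSBTAG00000051477, a further F52C9.6 row, had 196, 67.6 and 141 CPM in estrus and 54.0, 13.2 and 40.8 CPM in anestrus, with no overlap.

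ENSBTAG00000051626, the F52C9.6 row next in counts to ENSBTAG00000050509, had 162, 35.6 and 98.3 CPM in anestrus, 296, 123 and 266 CPM in estrus, and 177, 161 and 523 CPM in pregnancy. ENSBTAG00000049593 had 87.0, 23.3 and 41.4 CPM in anestrus, 168, 63.7 and 102 CPM in estrus, and 84.2, 46.3 and 217 CPM in pregnancy. In both rows anestrus replicate 2 was the lowest and pregnancy replicate 3 the highest library, and every pair of stages overlapped. ENSBTAG00000048643, also F52C9.6, had 68.7, 11.6 and 37.8 CPM in anestrus, 116, 79.1 and 117 CPM in estrus, and 86.3, 69.0 and 338 CPM in pregnancy, so that anestrus lay below both other stages.

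Further pol rows of high counts had the same low and high libraries. ENSBTAG00000053404 had 56.7, 13.9 and 25.01 CPM in anestrus, 113, 60.1 and 99.7 CPM in estrus, and 70.5, 44.5 and 205 CPM in pregnancy. ENSBTAG00000052433 had 80.0, 11.5 and 32.3 CPM in anestrus, 92.5, 50.1 and 88.0 CPM in estrus, and 58.8, 19.9 and 118 CPM in pregnancy. ENSBTAG00000053553 had 51.4, 15.0 and 36.6 CPM in anestrus, 87.9, 42.1 and 106 CPM in estrus, and 55.5, 66.6 and 153 CPM in pregnancy. Estrus stood apart from anestrus in the first of these rows and pregnancy from anestrus in the last, while the other pairs of stages overlapped.

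The CFDP2 rows outside the bucentaur pair were less abundant. ENSBTAG00000054668 had 79.0, 12.1 and 16.3 CPM in anestrus, 74.0, 37.7 and 59.7 CPM in estrus, and 41.3, 14.5 and 88.5 CPM in pregnancy. ENSBTAG00000051273, described through the same muntjac protein, had 27.0, 4.87 and 6.17 CPM in anestrus, 22.4, 11.02 and 18.6 CPM in estrus, and 16.7, 9.46 and 12.9 CPM in pregnancy. Anestrus replicate 1 exceeded every estrus library in both. ENSBTAG00000054862, described through the monitor lizard protein, had 19.5, 3.28 and 12.3 CPM in anestrus, 30.5, 20.4 and 49.2 CPM in estrus, and 19.1, 9.66 and 22.5 CPM in pregnancy, and its estrus libraries all lay above its anestrus libraries.

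Pregnancy was set against estrus to describe the members in the gestating and the cycling ovary. This comparison shares the estrus libraries with the one above, and those libraries entered the choice of the symbols. That choice favours high estrus values, and so negative log2 fold changes here, in advance. The counts set beside the shares of all rows are again a description, from which nothing is read. No member passed in edgeR (0%, smallest adjusted p = 0.656), with 2 higher and 8 lower at an unadjusted p under 0.05, where 4.23% and 3.19% of all rows lay. Of the 218 rows 74 had a positive and 144 a negative log2 fold change, with a median of -0.21 against 0.01 for all rows. Granulosa markers had a median of -0.49 (2 of 10 positive) and theca and luteal markers 0.68 (8 of 8). The medians were -0.15 for F52C9.6, -0.32 for pol, -0.47 for the other CFDP2 rows, -0.23 for the bucentaur pair and 0.61 for L1RE1. Stages did not overlap in 3 rows with higher and 11 rows with lower pregnancy libraries, where the backgrounds were 9.96% and 4.33%. The median was 0.05 without pregnancy replicate 2, -0.77 without pregnancy replicate 3, -0.47 without estrus replicate 2, -0.10 without estrus replicate 1, -0.03 without estrus replicate 3 and -0.06 without pregnancy replicate 1. It was -0.76 without anestrus replicate 2 and pregnancy replicate 3, and -0.80 with log2 library size in the model, where 16 of 218 rows were positive.

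The 3 rows with the lowest log2 fold change, among those whose higher stage reached 2 CPM, had no footprints in any pregnancy library. They were picked as extremes, and how many members or other rows shared this was not counted. Members at 0 numbered 18, 28 and 34 in pregnancy replicates 1 to 3, 11, 16 and 13 in anestrus, and 13, 12 and 10 in estrus. The part of depth in these zeros was not tested. The CFDP2 row ENSBTAG00000050567 had 0 counts in every pregnancy library, against 5.73, 1.35 and 2.47 CPM in estrus and 10.6, 1.35 and 0.834 CPM in anestrus. With counts pooled over the libraries of a stage and 3 counts over the pregnancy libraries as the floor, it was at least 14.5-fold lower than in estrus and at least 19.5-fold lower than in anestrus. Of its 213 anestrus counts 164 lay in replicate 1, without which the bound was 6.19-fold. Leaving out single libraries gave bounds of 6.00 to 21.2-fold against estrus, lowest without pregnancy replicate 1 and 9.04-fold without estrus replicate 1, and of 6.19 to 32.8-fold against anestrus, where the bound was 8.11-fold without pregnancy replicate 1 and highest without anestrus replicate 2. DESeq2 called both differences (adjusted p = 0.0328 and 0.00951), whereas edgeR called neither (adjusted p = 0.656 and 0.718). The authors' deposited table had it lower in both comparisons too, as 1 member lower in pregnancy than in estrus (0.0553% of all rows, with 0 higher and 0.0719%) and 1 lower than in anestrus (0.0995%). The pol row ENSBTAG00000054439 likewise had 0 in pregnancy, against 1.96, 2.08 and 2.96 CPM in estrus and 3.502, 0.242 and 0.667 CPM in anestrus, which is at least 11.8-fold and 6.33-fold lower (edgeR adjusted p = 0.656 and 0.718). Without pregnancy replicate 1 these bounds were 4.89-fold and 2.63-fold. Of the 69 anestrus counts 54 lay in replicate 1, and without that library the anestrus bound was 1.89-fold, while without anestrus replicate 2 it was 11.7-fold.

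The L1RE1 row ENSBTAG00000050903 was also at 0 in pregnancy, at least 48.0-fold lower than in estrus by the same bound, with all estrus counts in replicate 1, without which there is no fold. The bound was 19.9-fold without pregnancy replicate 1 and 91.7-fold without estrus replicate 2. DESeq2 called it in pregnancy versus estrus (adjusted p = 0.000115, 1 of the 2 members it called lower there, where 0.0661% of all rows were), and edgeR did not (adjusted p = 0.666). At the upper end, among rows whose higher stage reached 2 CPM, the F52C9.6 row ENSBTAG00000050665 had 0.881, 5.84 and 6.13 CPM in pregnancy and 1.80, 0.451 and 0.987 CPM in estrus. The pol row ENSBTAG00000052789 had 0.661, 0 and 15.0 CPM in pregnancy and 0, 1.99 and 0 CPM in estrus. The stages of both overlapped. DESeq2 called 0 members higher in pregnancy than in estrus (0.147% of all rows).

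Pregnancy and anestrus, the last pair of stages, share libraries with both comparisons above. The symbols were picked on calls against these same anestrus libraries, which favours low anestrus values in advance. The counts set beside the shares of all rows are therefore a description, from which nothing is read. In edgeR 0 members passed (0%, smallest adjusted p = 0.718), with 38 higher and 2 lower at an unadjusted p under 0.05, where 3.2% and 3.62% of all rows lay. The log2 fold change was positive in 187 of 218 rows, with a median of 0.92 against 0.00 for all rows. Theca and luteal markers had a median of 1.60 (8 of 8 positive) and granulosa markers 0.42 (7 of 10). By class the medians were 1.08 for F52C9.6, 0.93 for pol, 0.84 for L1RE1, 0.51 for the other CFDP2 rows and 0.08 for the bucentaur pair. In 25 rows every pregnancy library was higher than every anestrus library and in 2 rows lower, with backgrounds of 9.18% and 3.67%. This median changed with the libraries left out. The deepest and the shallowest library, anestrus replicate 2 and pregnancy replicate 3, were also the lowest and the highest for the members. Leaving them out narrows the difference by their levels alone, and the part of depth cannot be told apart. The median was 0.34 without pregnancy replicate 3, 0.57 without anestrus replicate 2 and 1.60 without anestrus replicate 1. Without both anestrus replicate 2 and pregnancy replicate 3 it was 0.02, with 116 of 220 rows positive, and with log2 library size in the model it was -0.38, with 60 of 218 positive.

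DESeq2 called 3 members higher in pregnancy than in anestrus (0.103% of all rows) and 2 lower (0.118%). Among the higher ones, ENSBTAG00000049338 and ENSBTAG00000052603 were also DESeq2 calls between estrus and anestrus, the pair for which the symbols were picked. The authors' deposited table had 3 higher (0.0995%). The L1RE1 row ENSBTAG00000049338 had 6.94, 3.02 and 15.0 CPM in pregnancy and 0.973, 0.657 and 0.333 CPM in anestrus, with a log2 fold change of 3.35 ± 0.83 (SE; edgeR adjusted p = 0.718, DESeq2 adjusted p = 0.00951). ENSBTAG00000052603 had 71.4, 57.6 and 187 CPM in pregnancy, all above its anestrus libraries (DESeq2 adjusted p = 0.0486). The pol row ENSBTAG00000053272 had 0.551, 5.03 and 25.9 CPM in pregnancy and 1.04, 0.173 and 0.584 CPM in anestrus. Its stages overlapped and its highest library was pregnancy replicate 3 (DESeq2 adjusted p = 0.0371). The L1RE1 row ENSBTAG00000050289 had 0, 0 and 40.9 CPM in pregnancy and 1.36, 0 and 3.501 CPM in anestrus, so its positive log2 fold change of 2.76 ± 2.08 (SE; edgeR adjusted p = 0.760) came from that same library.

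**Figure D5:**
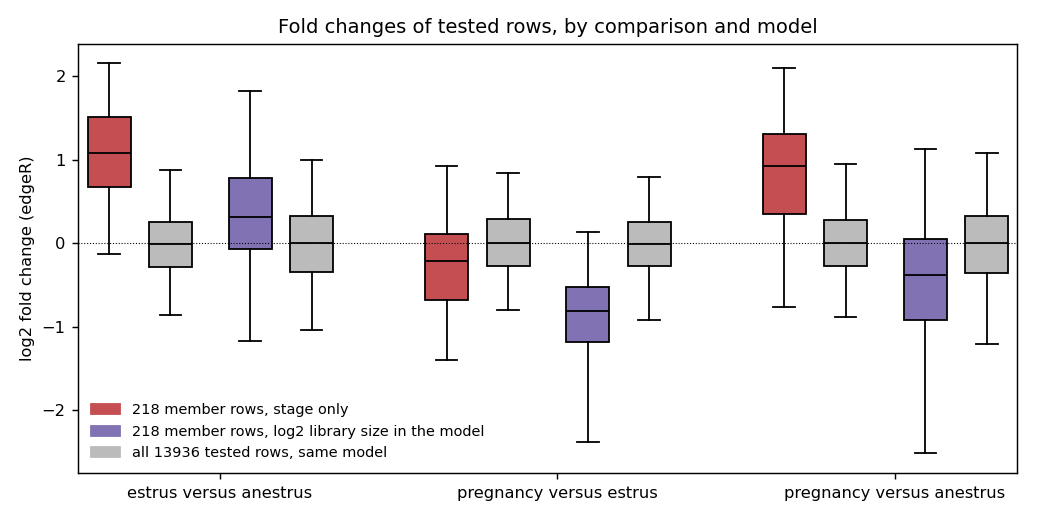
Log2 fold changes of tested rows (vertical axis, edgeR) in the 3 comparisons, for the 218 member rows under a model of stage only (red) and with log2 library size added (purple), each beside all 13936 tested rows (grey). Boxes show the median and quartiles and whiskers the 5th to 95th percentile; the median of the members in pregnancy versus anestrus is 0.92 in the first model and -0.38 in the second.

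Summing the rows of a symbol sets aside how reads were divided among rows of that symbol. It does not set aside division between pol and F52C9.6 rows, or with the 73 non-member rows of the same description. F52C9.6 as a sum had log2 fold changes of 1.14 ± 0.55 for estrus over anestrus, -0.02 ± 0.55 for pregnancy over estrus and 1.12 ± 0.55 for pregnancy over anestrus (SE, edgeR). For pol the values were 1.03 ± 0.56, -0.13 ± 0.56 and 0.90 ± 0.56, and for L1RE1 0.32 ± 0.47, 0.45 ± 0.47 and 0.77 ± 0.47. CFDP2, in which the bucentaur pair holds most counts, gave 0.51 ± 0.26, -0.23 ± 0.26 and 0.28 ± 0.26. For pregnancy over anestrus the sums turned direction with log2 library size in the model, to -0.41 ± 0.60 for F52C9.6, -0.53 ± 0.63 for pol, -0.22 ± 0.60 for L1RE1 and -0.15 ± 0.35 for CFDP2. Without anestrus replicate 2 and pregnancy replicate 3 they were 0.09, -0.11, -0.0040 and -0.06 in the same order. For estrus over anestrus the model with library size gave 0.32 ± 0.48 for F52C9.6, 0.25 ± 0.51 for pol, -0.23 ± 0.48 for L1RE1 and 0.27 ± 0.28 for CFDP2. For pregnancy over estrus it gave -0.72 ± 0.44, -0.78 ± 0.47, 0.01 ± 0.44 and -0.42 ± 0.26. In a test of the 3 stages together 0 of 218 rows passed in edgeR (0%, smallest adjusted p = 0.693, with 45 rows at an unadjusted p under 0.05, where 7.16% of all rows lay). DESeq2's likelihood ratio test called 5 members (0.419% of all rows), namely ENSBTAG00000049338, ENSBTAG00000050567, ENSBTAG00000051141, ENSBTAG00000052603 and ENSBTAG00000052837. This test includes the difference between estrus and anestrus for which the symbols were picked, so nothing is read from its count, and of these rows only ENSBTAG00000050567 was not called by DESeq2 in that pair.

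Host genes that act on retroelements were read beside the members in 4 lists, and edgeR and DESeq2 each called 0 of the 70 tested in any comparison. At an unadjusted edgeR p under 0.05, 5 (7.14%) were higher and 2 (2.86%) lower in estrus than in anestrus, where 2.91% and 4.13% of all rows lay. For pregnancy over estrus the counts were 2 (2.86%) higher and 5 (7.14%) lower, where 4.23% and 3.19% of all rows lay. For pregnancy over anestrus they were 0 and 1 (1.43%), where 3.2% and 3.62% of all rows lay. The genes printed below had the smallest unadjusted edgeR p over all stages or the most counts in their list, and are not typical of it. Of all rows, 4.76% were higher and 5.64% lower in estrus than in anestrus without overlap. Of the 23 piRNA pathway genes, 5 passed the filter on low counts, and the list summed to between 26.2 and 48.8 CPM. TDRD7, a Tudor domain protein of germ granules, had 22.4, 26.2 and 25.8 CPM in estrus and 14.6, 10.4 and 18.1 CPM in anestrus, without overlap (log2 fold change 0.78 ± 0.22, SE; edgeR adjusted p = 0.704). PIWIL2, which binds piRNAs, stayed between 0.0834 and 2.62 CPM. Genes for chromatin silencing were all tested (29), with 17 positive and 12 negative log2 fold changes in estrus versus anestrus (median 0.16) and 15 and 14 in pregnancy versus anestrus (median 0.08). TRIM28, the corepressor that zinc finger proteins bring to retroelements, had 155, 147 and 174 CPM in estrus and 145, 163 and 210.4 CPM in anestrus. Its stages overlapped. HELLS, a chromatin remodeller needed for DNA methylation of repeats, had 9.92, 8.05 and 8.17 CPM in pregnancy and 22.1, 18.9 and 9.71 CPM in estrus (log2 fold change -1.03 ± 0.32, SE; edgeR adjusted p = 0.656).

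The DNA methylation list had 12 genes tested, 8 of them with positive log2 fold changes in estrus versus anestrus (median 0.33). TET2, which oxidises methylcytosine, had 34.4, 19.5 and 19.9 CPM in estrus and 17.8, 10.5 and 13.9 CPM in anestrus, without overlap (log2 fold change 0.76 ± 0.27, SE; edgeR adjusted p = 0.704). DNMT1, the maintenance methyltransferase, had 108, 86.0 and 90.0 CPM in estrus and 69.9, 68.2 and 83.3 CPM in anestrus. Its stages did not overlap either. Genes that restrict retroelement RNA and cDNA gave 24 tested members, 11 positive and 13 negative in estrus versus anestrus, with a median of -0.06. AGO2, which cleaves RNA paired with small RNAs, had 68.8, 34.0 and 55.6 CPM in estrus and 80.3, 141 and 70.2 CPM in anestrus, without overlap (log2 fold change -0.97 ± 0.34, SE; edgeR adjusted p = 0.704).

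A last list held host genes that descend from retroelements and kept a protein of their own. Their summed level was also lowest in anestrus replicate 2 (508.5 CPM) and highest in pregnancy replicate 3 (1133 CPM), and whether it followed that of the members was not tested. Of 14 tested, 8 had positive log2 fold changes for estrus over anestrus (median 0.01), 9 for pregnancy over estrus (median 0.14) and 10 for pregnancy over anestrus (median 0.26). CCDC8 had 218, 104 and 267 CPM in anestrus, 198, 183 and 229.7 CPM in estrus, and 206, 212 and 347 CPM in pregnancy. RTL8A, from the gag gene of an ancient retrotransposon, had 115, 130.3 and 168 CPM in anestrus, 133, 152 and 136 CPM in estrus, and 117, 177 and 185 CPM in pregnancy. The stages of both overlapped. PNMA2, which descends from a gag gene as well, had 7.05, 6.84 and 8.17 CPM in pregnancy and 2.95, 2.35 and 3.95 CPM in estrus, without overlap (log2 fold change 1.16 ± 0.34, SE; edgeR adjusted p = 0.656).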

How the data were processed

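Ribosome footprints of 9 yak ovary libraries, 3 for each of 3 stages, were analysed from tables the authors deposited. Those tables hold estimated counts per row and FPKM, which the authors made with Bowtie2 and RSEM, per the submitters' processing notes; for their versions and for the genome build, the sources used here give nothing. The authors' deposited comparison tables also hold a log2 fold change of mean FPKM (100% within 0.001 of the recomputed value), a p-value and an FDR, whose test is not stated. The table for pregnancy and anestrus runs anestrus over pregnancy, so its sign was turned. Counts of a library were identical between tables (0 differences), and 0 value columns were without a sample. No 2 libraries were close enough to be duplicates (lowest chi-square per row 12.9).

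Estimated counts were rounded and fitted with edgeR 4.0.16 (R 4.3.3), with every library and row in 1 fit (filterByExpr, TMM, quasi-likelihood test on stage, Benjamini-Hochberg adjusted p under 0.05 as a call), and 13936 rows passed the filter. Levels are CPM of the library total. DESeq2 1.42.0 ran on the same rows. On simulated data for estrus versus anestrus with 13936 rows, 61 of 100 rows changed 4-fold and 91 of 100 changed 16-fold were recovered, with 7 unchanged rows called. The changed rows were drawn from all rows, whose median biological coefficient of variation was 28.7%, against 55.8% for the members. Recovery among member rows was not simulated, so these shares do not apply to them. P-values measure only the spread between these samples, which may be technical, since labels do not tie replicates to animals. Replicate numbers were not taken as pairs. After the stage mean of each row was taken off, log2 CPM of same-numbered libraries of different stages correlated by -0.03 to 0.26. Differently numbered libraries were not compared in this way, so the range does not settle whether replicates are paired.

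The members and gene lists were chosen with earlier results of these data known. Values of single libraries are given for all stages or only for the stages compared. They cover the 5 rows of each symbol with the most counts and rows that DESeq2 called. The 3 rows with the highest and the 3 with the lowest log2 fold change in each comparison at 2 CPM or more were added. Up to 4 genes of each list are printed. They come from the 2 with the smallest unadjusted edgeR p over the 3 stages and the 2 with the most counts, and are not typical of their list. The on-off rule, the bucentaur pair, the 73 comparison rows, leaving out 2 libraries together and the bounds without single libraries were chosen after the values were seen. No sequences were used. Alternatives were DESeq2, the authors' table, other scalings and filters, a fit of only the 2 stages compared, log2 library size as a covariate, a replicate block and leaving out each library.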

Additional observations from a re-analysis of the deposited data

How the results depend on the processing

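No member was called by edgeR under any scaling, filter, pair-only, covariate or replicate-block alternative or with any library left out (0 in each). DESeq2 called 5 members higher in estrus than in anestrus (0.0504% of all rows) and 2 lower in pregnancy than in estrus (0.0661%). It called 3 higher and 2 lower in pregnancy than in anestrus (0.103% and 0.118%), and 5 over the 3 stages (0.419%). In the same order of pairs, the authors' deposited table listed 10 as higher (0.0885%), 1 as lower (0.0553%), and 3 as higher and 1 as lower (0.0995% each). Calls between estrus and anestrus led to the choice of the symbols, so nothing is read from them or from the test over the 3 stages. With the replicate block the median log2 fold changes were 1.21, -0.27 and 0.93, and leaving out each library gave 0.78 to 1.87, -0.77 to 0.05 and 0.34 to 1.60. In pregnancy versus anestrus the median was -0.38 with log2 library size as a covariate and 0.020 without anestrus replicate 2 and pregnancy replicate 3. For 39 single rows and sums, 661 of 713 alternatives kept direction and call, 18 gained a call and 0 lost one. A further 34 turned direction, none of them a called value, and the cause was not tested. The main edgeR fit called 0 member rows, so none of these rows could lose a call or turn from a called value. With the depth covariate, values in pregnancy versus anestrus were -0.41 for the F52C9.6 sum, -0.53 for pol, -0.22 for L1RE1, -0.15 for CFDP2, 0.11 for ENSBTAG00000009805, -0.56 for ENSBTAG00000053272 and -17.85 for ENSBTAG00000050289, of which the last is no measured size. In pregnancy versus estrus they were -0.65 for ENSBTAG00000053272 and -0.31 for ENSBTAG00000052789, and in estrus versus anestrus -0.23 for the L1RE1 sum. Without anestrus replicate 2 and pregnancy replicate 3, pregnancy versus anestrus gave -0.11 for the pol sum, -0.056 for CFDP2, -0.0040 for L1RE1, 0.013 for ENSBTAG00000009805 and -7.46 for ENSBTAG00000050289, and pregnancy versus estrus -0.0061 for the L1RE1 sum and -1.06 for ENSBTAG00000052789. Library size alone gave 0.090 for ENSBTAG00000009805 in pregnancy versus anestrus, and 0.11 for the F52C9.6 and 0.0070 for the pol sum in pregnancy versus estrus; the authors' table gave 0.090 for ENSBTAG00000009805. Over single libraries left out, estrus versus anestrus ran from -1.30 to 0.085 for ENSBTAG00000048551 and -1.68 to 0.65 for ENSBTAG00000050345, pregnancy versus anestrus from -0.092 to 0.0075 for ENSBTAG00000009805 and -7.12 to 4.00 for ENSBTAG00000050289, and pregnancy versus estrus from -1.06 to 8.32 for ENSBTAG00000052789, -0.69 to 0.25 for the F52C9.6 sum, -0.76 to 0.16 for pol and -0.0066 to 0.73 for L1RE1. Depth limits low rows most in pregnancy replicate 3, where 3 counts are 2.04 CPM.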

Other observations

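The non-member rows whose log2 CPM over the 9 libraries was most alike to the summed members were read off by correlation, a choice made after the data were seen. Among the 100 most alike of 13718 non-member rows (correlation 0.908 to 0.984), 23 were described as retroelement proteins or named Pol, which 0.707% of all non-member rows were. Named host genes at the top were SLC25A36 (0.976), a mitochondrial nucleotide carrier, PNISR (0.975) and ARGLU1 (0.973), which bind splicing factors, and ACTR3B (0.974), a subunit of an actin-nucleating complex. ZRANB2 (0.968), LUC7L3 (0.956) and NKTR (0.942), which belong to or bind the splicing machinery, followed. These values share the 9 libraries and their depth, and whether depth has a part in them was not tested.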
